A study of Trametes sanguinea with 15 samples.

Results

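The GH43 genes of Pycnoporus sanguineus CIRM-BRFM 1264 were taken by protein ID. They are 2 of the 14165 gene models in the count table, 1561085 and 1695354, and both passed the filter on low counts that left 11724 models for testing. Their family name comes from the gene lists that the study published for this strain, which cover 166 genes, so other GH43 genes of the strain were not analysed here. The deposited tables give a gene model length of 1002 bases for 1561085 and 1104 bases for 1695354, with no sequence or position, and neither gene has a subfamily or a tested activity in the sources used here.

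P. sanguineus is a white-rot basidiomycete, a fungus that decomposes wood. Mycelium was grown in liquid culture for 3 days, and polyadenylated RNA was sequenced in 15 libraries, 3 for each of 5 carbon sources. Maltose, a soluble sugar used as the control, was supplied at 20 g/l. Every other culture also held maltose, at 2.5 g/l, together with 15 g/l of Avicel (purified crystalline cellulose), a mixture of xylans and galactomannans (called xylan-galactomannan below), ground wheat straw, or milled aspen wood. The strain, the mineral medium, the temperature and the day of sampling were shared by all groups, so the carbon sources differed in the amount of maltose as well as in the added substrate.

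Glycoside hydrolase family 43 groups enzymes that act on the arabinose- and xylose-containing parts of plant cell walls. Characterised members in fungi and bacteria include α-L-arabinofuranosidases, which remove arabinose side chains from arabinoxylan and pectin, β-xylosidases, which release xylose from the ends of xylan chains, and arabinanases, which cut the arabinan chains of pectin. Grass straw is rich in arabinoxylan, hardwood such as aspen is rich in glucuronoxylan, and Avicel consists mainly of cellulose. The sequence family alone does not show which of these reactions an enzyme carries out.

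Library totals ran from 24209984 to 50428442 counts. Levels are given as CPM, the counts of a gene scaled to a common library size after TMM normalisation, with the SD over the 3 libraries of a group. The libraries of maltose 3, Avicel 1 and xylan-galactomannan 2 had the lowest mean correlation with the rest of their group (0.960, 0.962 and 0.946), and means and fold changes against maltose and Avicel are also given without them. Xylan-galactomannan 1, at 0.960, was kept in those values. The study describes independent cultures for maltose, Avicel, wheat straw and aspen, and no source used here says so for xylan-galactomannan. The p-values therefore judge differences against the spread between these libraries, and the tests of fold changes use 1 estimate of it shared by all groups.

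The first GH43 gene, 1561085, was low on maltose and raised on all 4 other carbon sources. On maltose it stood at 5.32, 4.74 and 6.98 CPM in replicates 1, 2 and 3. On Avicel it stood at 59.8, 62.8 and 71.7 CPM, and on aspen at 49.1, 51.4 and 43.0 CPM. Both groups were narrow, and every library in them lay above every maltose library. The RNA came from whole mycelium, so more transcript per cell and more cells carrying the transcript cannot be told apart.

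On wheat straw 1561085 stood at 88.3, 150 and 112 CPM. On xylan-galactomannan it stood at 19.2, 117 and 87.1 CPM, a 6.07-fold range within the group. Xylan-galactomannan 1 was the only library among the 12 with an added substrate that fell below the aspen libraries, and it still lay above all 3 maltose libraries.

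The second GH43 gene, 1695354, was also low on maltose, at 11.2, 6.60 and 3.03 CPM. It stayed low on Avicel, at 3.38, 15.1 and 15.2 CPM. These ranges overlapped, because Avicel 1 lay below maltose 1 and maltose 2 and only just above maltose 3.

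On xylan-galactomannan 1695354 stood at 30.7, 70.6 and 66.7 CPM, above every maltose and Avicel library. On wheat straw it stood at 161, 253 and 213 CPM, and on aspen at 144, 546 and 366 CPM. Both plant biomasses lay above all xylan-galactomannan libraries, and their own ranges overlapped because aspen 1 was lower than any wheat straw library.

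**Figure D1:**
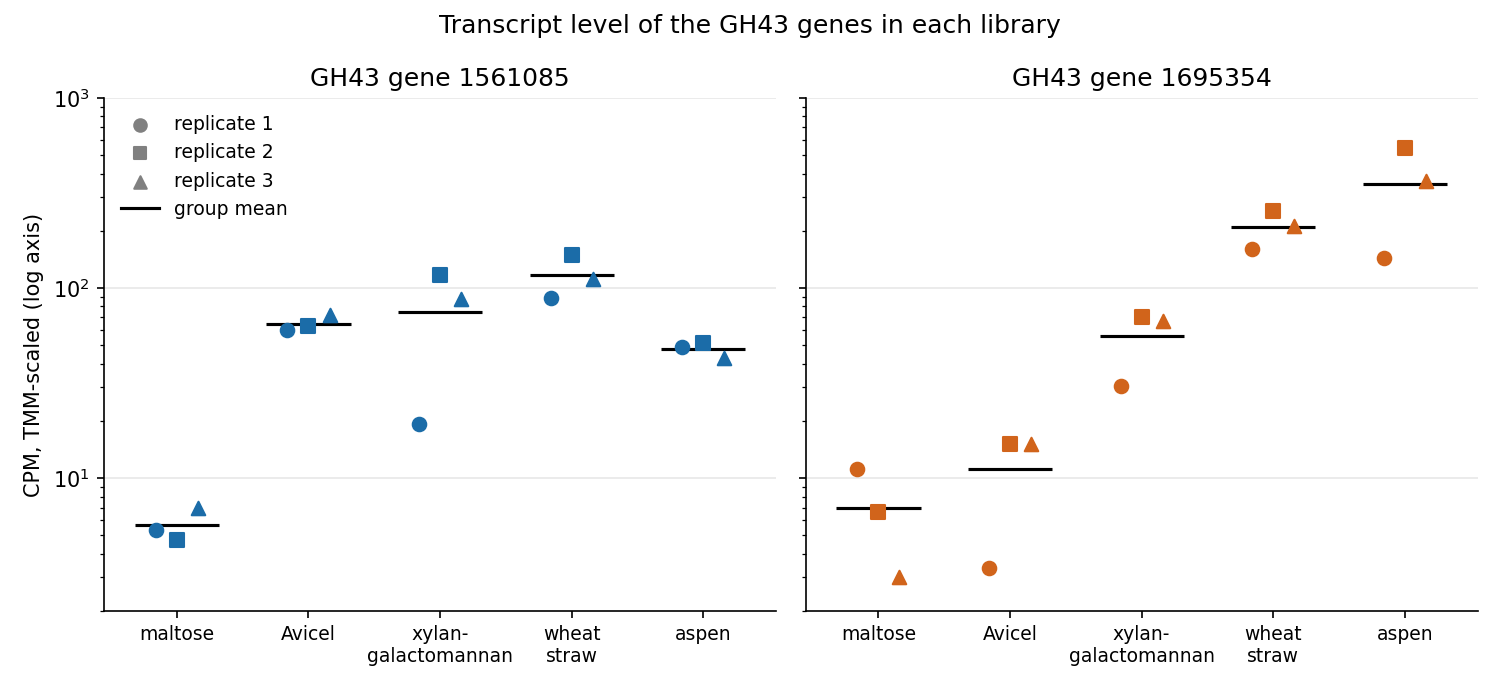
Level of GH43 genes 1561085 (left) and 1695354 (right) in each library, in CPM after TMM scaling on a log axis, by carbon source. Each marker is 1 library and each black line the mean of 3. Gene 1561085 stood at 4.74 to 6.98 CPM on maltose and at 19.2 to 150 CPM elsewhere, and 1695354 ran from 3.03 CPM on maltose to 546 CPM on aspen.

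Counts behind these values were ample for every library but not equal. The lowest count of 1561085 was 140, in maltose 2, and its highest was 7202, in wheat straw 2. The lowest count of 1695354 was 75, in maltose 3, and its highest was 23283, in aspen 2. Together the genes took 0.00119% of the counts on maltose and 0.0472% on aspen.

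Against maltose, 1561085 rose on every added substrate. Its mean level was 5.68 ± 1.16 CPM on maltose and 117 ± 30.9 CPM on wheat straw (SD, n = 3 each), a log2 fold change of 4.36 ± 0.51 (SE, 20.6-fold, adjusted p = 5.8e-05 by edgeR). On xylan-galactomannan the mean was 74.3 ± 49.9 CPM, a log2 fold change of 3.71 ± 0.49 (13.1-fold, adjusted p = 3.5e-04). The mean on Avicel was 64.8 ± 6.21 CPM, a log2 fold change of 3.51 ± 0.49 (11.4-fold, adjusted p = 4.7e-04). Aspen gave the smallest rise, with a mean of 47.8 ± 4.30 CPM and a log2 fold change of 3.07 ± 0.48 (8.43-fold, adjusted p = 2.4e-04). None of these groups overlapped with maltose. The share of all genes tested without such overlap is not given here, nor for the comparisons below. Gene 1561085 was called against maltose under every setting tried. Without maltose 3 its maltose mean was 5.03 CPM, without Avicel 1 its Avicel mean was 67.3 CPM, and without xylan-galactomannan 2 its mean there was 53.2 CPM. With all 3 of those libraries left out, the log2 fold changes were 4.55 on wheat straw, 3.78 on Avicel, 3.38 on xylan-galactomannan and 3.25 on aspen. Leaving out each library in turn gave 3.19 to 4.17 on xylan-galactomannan.

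Against maltose, 1695354 rose on 3 of the 4 substrates. From 6.95 ± 4.10 CPM on maltose it rose to 352 ± 201 CPM on aspen, a log2 fold change of 5.66 ± 0.73 (50.5-fold, adjusted p = 5.8e-05). On wheat straw the mean was 209 ± 46.2 CPM, a log2 fold change of 4.91 ± 0.70 (30.0-fold, adjusted p = 2.8e-04). On xylan-galactomannan it was 56.0 ± 22.0 CPM, a log2 fold change of 3.01 ± 0.65 (8.04-fold, adjusted p = 0.0077). On Avicel 1695354 did not pass the test, at 11.2 ± 6.80 CPM and a log2 fold change of 0.69 ± 0.61 (95% interval -0.63 to 2.01, adjusted p = 0.55). That interval does not exclude a rise up to its upper bound. Without maltose 3, Avicel 1 and xylan-galactomannan 2, the log2 fold changes of 1695354 against maltose were 5.31 on aspen, 4.56 on wheat straw and 2.43 on xylan-galactomannan, all still called, and 0.80 on Avicel (adjusted p = 0.36). Leaving out the same library of each group changed its mean to 8.91 CPM on maltose, 15.2 CPM on Avicel and 48.7 CPM on xylan-galactomannan.

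These calls, at an adjusted p under 0.05 and an absolute log2 fold change above 1, stand against a broad response of the transcriptome. Aspen against maltose called 28.3% of all genes tested, wheat straw 18.0%, xylan-galactomannan 8.66% and Avicel 8.10%. Of the GH43 genes, 2 of 2 were called on aspen, wheat straw and xylan-galactomannan, and 1 of 2 on Avicel, all higher than on maltose. The median log2 fold change over all genes tested was 0.00 for aspen, wheat straw and Avicel and 0.04 for xylan-galactomannan. The study had listed 1695354 among the genes it selected on aspen and on wheat straw from these libraries, so its direction there against maltose and Avicel is not independent evidence. Xylan-galactomannan took no part in that choice, although the maltose and Avicel libraries it is compared with did.

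Against Avicel, the GH43 genes differed in what they did. Gene 1695354 rose on aspen by a log2 fold change of 4.97 ± 0.70 (31.3-fold, adjusted p = 1.1e-04), on wheat straw by 4.22 ± 0.68 (18.6-fold, adjusted p = 0.0011) and on xylan-galactomannan by 2.32 ± 0.63 (4.99-fold, adjusted p = 0.016). In all 3 comparisons every library on the other substrate lay above every Avicel library. Gene 1561085 passed the test in none of the 3, with log2 fold changes of -0.44 ± 0.44 on aspen (95% interval -1.39 to 0.51), 0.85 ± 0.44 on wheat straw (-0.10 to 1.80) and 0.20 ± 0.44 on xylan-galactomannan (-0.75 to 1.15). Its aspen libraries all lay below, and its wheat straw libraries all above, those on Avicel. In fits to only the 6 libraries compared, these differences reached an adjusted p of 0.030 for aspen and 0.025 for wheat straw, but their log2 fold changes, -0.46 and 0.83, stayed within the limit of 1. Background calls were 27.6% of genes tested for aspen against Avicel, 12.6% for wheat straw and 13.6% for xylan-galactomannan. In a fit to only the 6 libraries compared, the call of 1695354 on xylan-galactomannan against Avicel was lost (log2 fold change 2.29, adjusted p = 0.063). Without the 3 libraries that stood apart, 1695354 was called against Avicel on aspen (4.51), wheat straw (3.76) and xylan-galactomannan (1.62, a 3.08-fold rise, adjusted p = 0.041), and 1561085 on none (-0.53, 0.77 and -0.39).

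Between the plant biomasses, the GH43 genes had opposite fitted directions. Gene 1561085 was lower on aspen than on wheat straw, with a log2 fold change of -1.29 ± 0.44 (95% interval -2.25 to -0.33, 2.44-fold lower, adjusted p = 0.044), and the groups did not overlap. Gene 1695354 stood higher on aspen by 0.75 ± 0.60 (95% interval -0.54 to 2.04, adjusted p = 0.37), did not pass the test, and had overlapping groups. In this comparison 13.0% of all genes tested were called. The call of 1561085 lay close to the threshold and was lost with limma-voom (adjusted p = 0.068), with scaling by library size alone (adjusted p = 0.073) and when any of 11 of the 15 libraries was left out, namely maltose 1 or 2, Avicel 2 or 3, xylan-galactomannan 3 or any wheat straw or aspen library (adjusted p up to 0.14). Its log2 fold change stayed between -1.45 and -1.07 over all of the libraries left out.

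Against the hemicellulose mixture, 1695354 rose on both plant biomasses and 1561085 passed the test on neither. Gene 1695354 was higher on aspen by a log2 fold change of 2.65 ± 0.63 (6.29-fold, adjusted p = 0.0046) and on wheat straw by 1.90 ± 0.62 (3.73-fold, adjusted p = 0.025), with no overlap of libraries. Gene 1561085 gave -0.64 ± 0.44 on aspen (95% interval -1.59 to 0.31, adjusted p = 0.25) and 0.65 ± 0.44 on wheat straw (95% interval -0.30 to 1.60, adjusted p = 0.25), and its groups overlapped in both. Background calls were 26.2% for aspen and 21.5% for wheat straw. The call of 1695354 on wheat straw was lost without xylan-galactomannan 1 (log2 fold change 1.61, adjusted p = 0.092), without xylan-galactomannan 3 (2.05, 0.051), without wheat straw 2 (1.74, 0.070) and without wheat straw 3 (1.89, 0.054). Without xylan-galactomannan 1, the fall of 1561085 on aspen passed the test (log2 fold change -1.09, adjusted p = 0.0027).

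**Figure D2:**
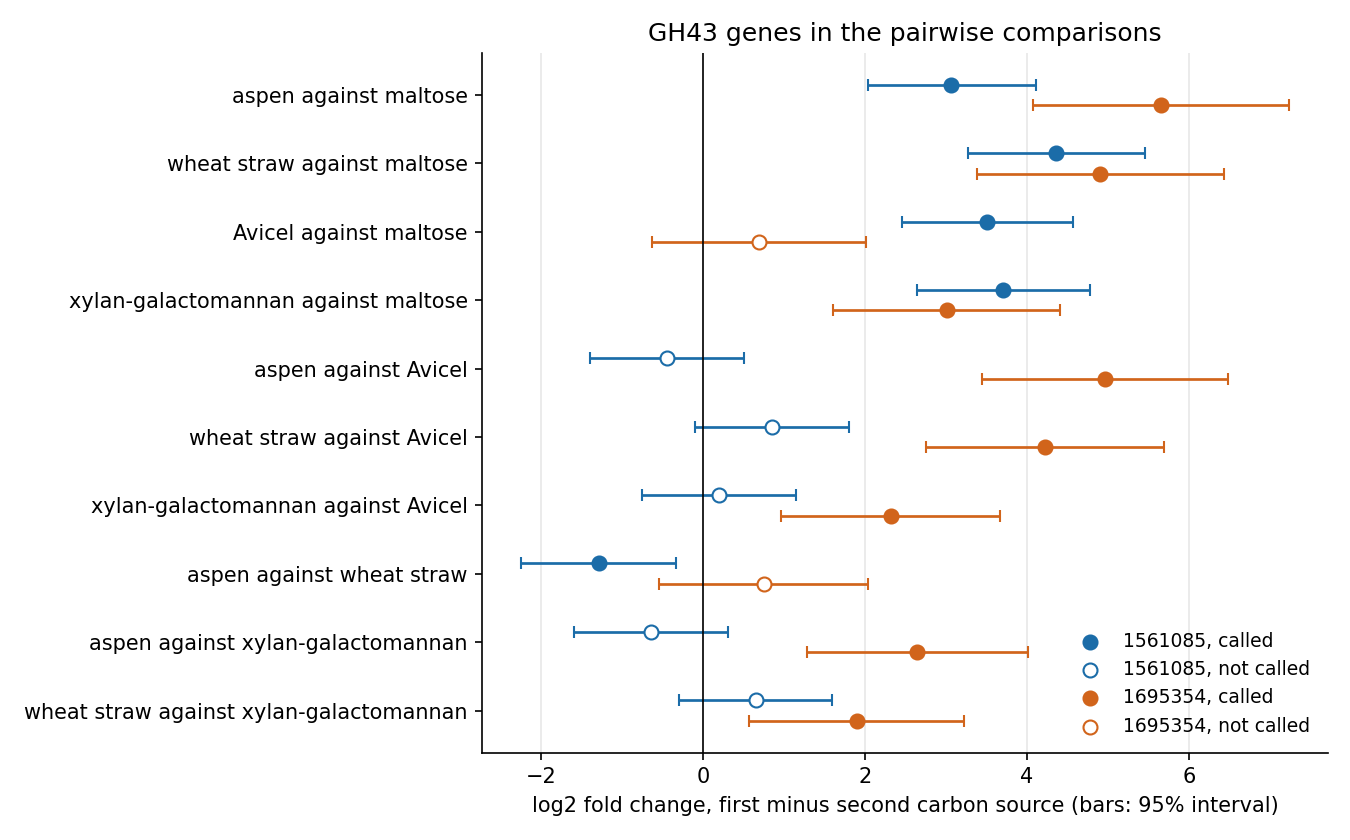
Fitted log2 fold changes of GH43 genes 1561085 (blue) and 1695354 (orange) in the 10 comparisons of carbon sources, first minus second, with 95% intervals from edgeR. Filled circles were called. Gene 1561085 moved mainly against maltose (3.07 to 4.36), and 1695354 also rose against Avicel (2.32 to 4.97).

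Ordered by mean level, 1561085 ran from wheat straw over xylan-galactomannan, Avicel and aspen to maltose. No neighbours in that order differed by the test until the step from aspen to maltose. Xylan-galactomannan and Avicel changed places in mean log2 CPM, at 5.86 and 6.01. They did so too without xylan-galactomannan 2 and Avicel 1, at 53.2 and 67.3 CPM. Ordered by mean CPM of all libraries, 1695354 ran from aspen over wheat straw and xylan-galactomannan to Avicel and maltose. There the steps from wheat straw to xylan-galactomannan and from xylan-galactomannan to Avicel passed the test, and the steps at either end did not. A test of any difference among the 5 carbon sources passed for 1561085 (adjusted p = 1.8e-04) and for 1695354 (adjusted p = 4.7e-05), as it did for 70.6% of all genes tested.

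Per kb of gene model, which allows levels to be set against those of other genes, both GH43 genes lay in the lower part of the transcriptome on maltose. There 1561085 averaged the 30.8th percentile of the genes tested and 1695354 the 31.4th. On wheat straw they averaged the 89.6th and the 93.8th percentile. They parted on Avicel, at the 80.8th percentile for 1561085 and the 39.5th for 1695354, and on aspen, at the 76.9th and the 95.6th. In aspen 2, the highest library, 1695354 was the 242nd gene of 11724 by level per kb.

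The spread within groups also differed between the genes. The coefficient of variation of 1561085 was 8.99% on aspen and 9.59% on Avicel, against medians of 14.8% and 18.2% over all genes. That of 1695354 was 57.2% on aspen and 60.5% on Avicel. On wheat straw the genes had coefficients of 26.5% and 22.1%, above the median of 9.74% over all genes. On xylan-galactomannan 1561085 reached 67.2%, against a median of 23.0%, and the low library there was xylan-galactomannan 1.

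The ratio of the GH43 genes within a library does not depend on how libraries are scaled. It was taken as the log2 of 1695354 over 1561085, both in counts per kb with 0.5 counts added. On Avicel it was -4.28, -2.20 and -2.38, a mean of -2.95 ± 1.15 (SD, n = 3), so 1561085 was the higher gene in every Avicel library, by 7.73-fold in the geometric mean and by 4.88-fold without Avicel 1. On aspen the ratio was 1.41, 3.27 and 2.95, a mean of 2.54 ± 0.99, so 1695354 was the higher gene in every aspen library, by 5.83-fold. Between Avicel and aspen the order of the genes was therefore inverted in 6 of 6 libraries. From these same libraries the study had selected 1695354 as raised on aspen and wheat straw but not on maltose and Avicel. The inversion is therefore not independent evidence.

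On wheat straw the ratio was 0.73, 0.62 and 0.78, a mean of 0.71 ± 0.08, the narrowest group. On maltose it was 0.93, 0.34 and -1.34 (-0.02 ± 1.18), with maltose 3 opposite in sign to the other maltose libraries and a mean of 0.64 without it. On xylan-galactomannan it was 0.54, -0.86 and -0.53 (-0.28 ± 0.73), with xylan-galactomannan 1 opposite in sign to the others and a mean of 0.01 without xylan-galactomannan 2.

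The ratio differed among the carbon sources by an exact permutation test of the F statistic over all 1401400 partitions of the libraries (p = 1.3e-04). The study had selected 1695354 by its levels in these libraries, those on xylan-galactomannan excepted. The permutation tests of the ratio do not allow for that choice. Of the 10 pairs of carbon sources, 8 had no overlap of libraries and gave an exact two-sided p of 0.10 (adjusted p = 0.12), the smallest that 3 libraries against 3 allow, so no pair could pass by itself. The remaining pairs were wheat straw against maltose (difference 0.73, exact p = 0.4) and xylan-galactomannan against maltose (difference -0.26, exact p = 0.9). The largest difference was 5.49, for aspen against Avicel, followed by 3.66 for wheat straw against Avicel. Without maltose 3, Avicel 1 and xylan-galactomannan 2 the exact permutation test over all groups gave p = 0.0028.

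**Figure D3:**
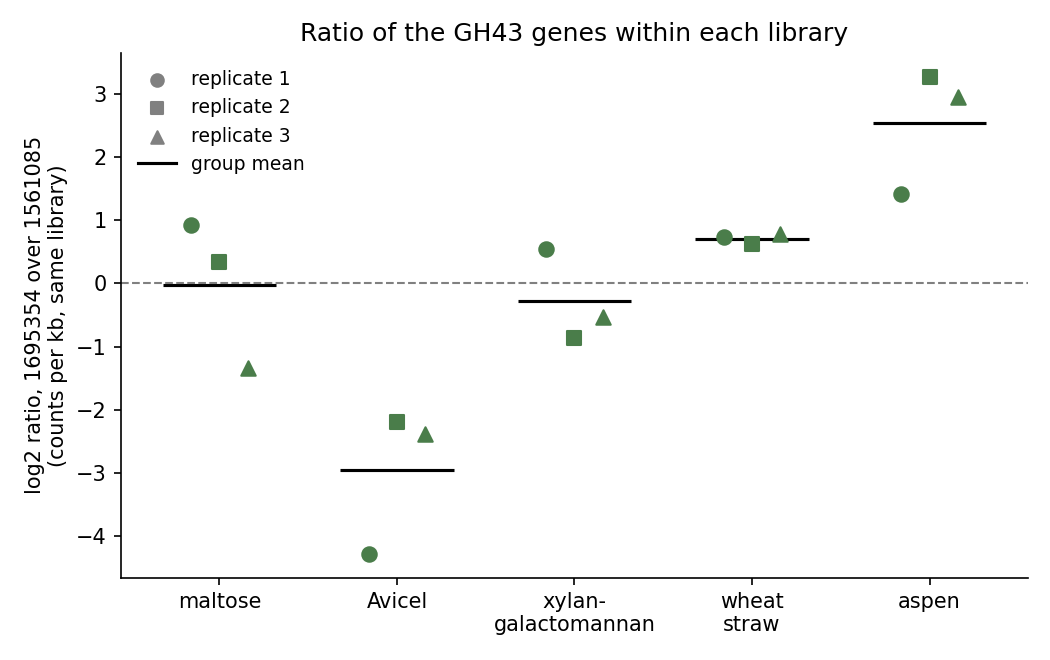
Log2 ratio of GH43 gene 1695354 over 1561085, in counts per kb of the same library, by carbon source. Markers are libraries, black lines group means of 3, and the dashed line marks equal levels. The ratio lay between -4.28 and -2.20 on Avicel and between 1.41 and 3.27 on aspen.

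Over the 15 libraries, the log2 CPM of the GH43 genes had a Pearson correlation of 0.598, which is given as a description because libraries of a group share their carbon source. Over the 5 group means the correlation was 0.629, and over deviations from the group means it was 0.33. Without Avicel 1, the library in which 1695354 was lowest relative to 1561085, it was 0.702. In the order of likeness to 1561085 the other GH43 gene was the 578th of the genes tested, and 1561085 was the 1965th in the order of likeness to 1695354.

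**Figure D4:**
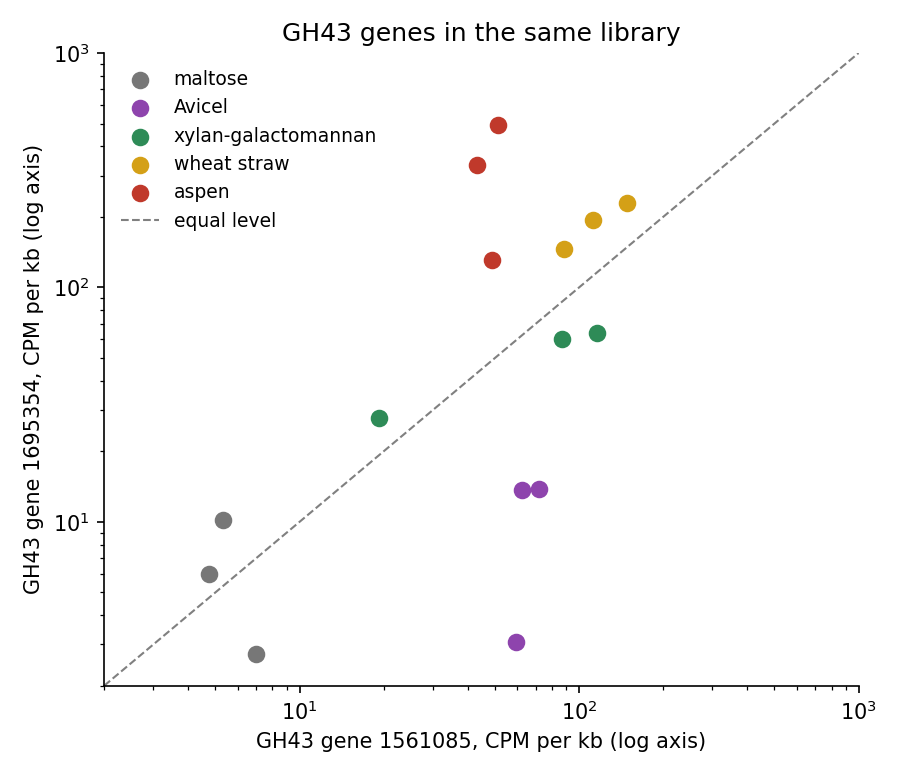
Level of GH43 gene 1695354 against 1561085 in the same library, in CPM per kb on log axes, with 1 point for each of the 15 libraries coloured by carbon source. The dashed line marks equal levels. The 3 Avicel points lie below it and the 3 aspen and 3 wheat straw points above it, with a Pearson correlation of 0.598 over all points.

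The gene most like 1561085 over the 15 libraries was 1561925, of family GH79, which includes β-glucuronidases acting on uronic acid side chains (r = 0.956). Its mean levels were 12.6 CPM on maltose, 62.9 on Avicel, 41.8 on xylan-galactomannan, 94.4 on wheat straw and 53.6 on aspen. Over deviations from the group means their correlation was 0.93. The deviations of 1561085 were widest on xylan-galactomannan, at -1.59, 1.01 and 0.59 in log2 CPM, and at most 0.39 in size elsewhere. The xylan-galactomannan libraries therefore weigh most in that value. The third most like gene was 1577052, of family GH3, which holds β-glucosidases and β-xylosidases (r = 0.940), at 7.66 CPM on maltose and 110 CPM on xylan-galactomannan. The others of the first 5 carry no annotation in the published lists and are 1655076 (r = 0.942), 1679559 (r = 0.934) and 1613766 (r = 0.920). Next among annotated genes came 1602759, of the protein kinase class KOG1187 (r = 0.892). Only 6 genes exceeded a correlation of 0.9.

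For 1695354 the likeness was shared by many more genes, with 104 above 0.9. The first 5 were 1304876 (r = 0.974), 79365 (r = 0.971), 1563101 (r = 0.965), 1681644 (r = 0.965) and 1677765 (r = 0.961), none of them annotated in the published lists. All 5 had their highest mean on aspen and their second highest on wheat straw, as in 1681644, with 57.3 CPM on maltose, 53.2 on Avicel, 174 on xylan-galactomannan, 311 on wheat straw and 441 on aspen. Only 96 of the genes tested carry an annotation, all of them from the published lists. Those most like 1695354 were 1674731, of the calcium/proton antiporter class KOG1397 (r = 0.954), 1581796, of the predicted lipase class KOG4569 (r = 0.946), and 292291, of the transporter class KOG0255 (r = 0.946). The study drew up its lists with these same libraries, those on xylan-galactomannan excepted. The likeness of annotated genes to either GH43 gene is therefore not independent evidence.

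Genes 1561925 and 1577052 share with 1561085, and 292291 shares with 1695354, a node of the self-organising map in which the study grouped genes of similar transcription, so their likeness here is not independent of that grouping. Shares of all genes tested called higher than on maltose were 14.4% on aspen, 9.80% on wheat straw, 3.66% on Avicel and 5.87% on xylan-galactomannan. Of the 10 other published members of the node of 1561085, 10 were called on aspen, wheat straw and Avicel and 8 on xylan-galactomannan, all higher than on maltose. Their median log2 fold changes were 2.38 on aspen, 2.92 on wheat straw and 3.33 on Avicel, against 3.07, 4.36 and 3.51 for 1561085. On xylan-galactomannan, which was not used to form the map, they ran from 0.54 to 5.28, against 3.71 for 1561085. Of the 5 other published members of the node of 1695354, 5 were called on aspen and wheat straw, 3 on xylan-galactomannan and 0 on Avicel, again all higher. Their medians were 3.65, 2.83 and 2.74 on the first 3 and -0.14 on Avicel.

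The GH3 genes and the GH74 gene 1721886 of the published lists were counted in other groups, described below. Gene 1721886 was placed among the cellulose-active genes. Its log2 fold changes against maltose were 3.06 on aspen, 3.96 on wheat straw and 6.95 on Avicel, all called. On xylan-galactomannan it gave -0.66 and was not called. Beside the GH43 genes, 5 genes of those lists were taken as hemicellulose-active. They are 1672345 (CBM1-GH5_7, a mannanase type with a cellulose-binding module), 1664834 (GH2, a predicted mannosidase), 1679979 (CE15, the glucuronoyl esterase family, which cleaves ester bonds between lignin and glucuronoxylan), 1592100 (CE16, acetylesterases that remove acetyl groups from hemicellulose fragments) and 1567160 (GH95, α-fucosidases). Of all genes tested, 14.4%, 9.80%, 3.66% and 5.87% were called higher than on maltose on aspen, wheat straw, Avicel and xylan-galactomannan. Of these 5 genes, 4 were called against maltose on aspen, 5 on wheat straw, 3 on Avicel and 4 on xylan-galactomannan, all higher. Their median log2 fold changes were 4.09, 2.83, 2.40 and 3.97, beside 4.37, 4.63, 2.10 and 3.36 for the mean of the GH43 genes and 0.00 to 0.04 for all genes tested. Against Avicel, 2 of the 5 were called higher and 1 lower on each of aspen, wheat straw and xylan-galactomannan, where 1695354 was called higher each time and 1561085 not at all. Of all genes tested, 14.8%, 7.68% and 9.10% were called higher in those comparisons, and 12.8%, 4.91% and 4.53% lower. Aspen against wheat straw called 0 of the 5 higher and 1 lower, beside 5.89% and 7.14% of all genes. Against xylan-galactomannan, 1 of the 5 was called higher and 2 lower on aspen, and 2 higher and 1 lower on wheat straw. The shares of all genes there were 11.5% higher and 14.7% lower on aspen, and 9.60% and 11.9% on wheat straw.

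The mannanase-type gene 1672345 was highest on Avicel, at 1679 ± 993 CPM against 11.0 ± 3.72 CPM on maltose, whereas 1695354 did not pass the test there. The esterase gene 1679979 was highest on xylan-galactomannan, at 206 ± 170 CPM against 1.27 ± 0.281 CPM on maltose. Gene 1592100 stood at 169 ± 70.5 CPM on aspen and, like 1695354, rose there against Avicel (log2 fold change 1.69 ± 0.48, adjusted p = 0.012). Unlike 1695354, it passed the test on Avicel against maltose (log2 fold change 2.40 ± 0.50, adjusted p = 0.0068).

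The mannosidase-type gene 1664834 resembled 1695354 on Avicel, where neither gene passed the test against maltose (log2 fold change of 1664834 0.02 ± 0.39, adjusted p = 0.99). It resembled 1561085 between the plant biomasses, being lower on aspen than on wheat straw (-1.14 ± 0.39, adjusted p = 0.043). The fucosidase-type gene 1567160 rose on both plant biomasses against maltose, by 1.42 ± 0.31 on aspen and 1.67 ± 0.31 on wheat straw, and passed the test on neither purified substrate.

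**Figure D5:**
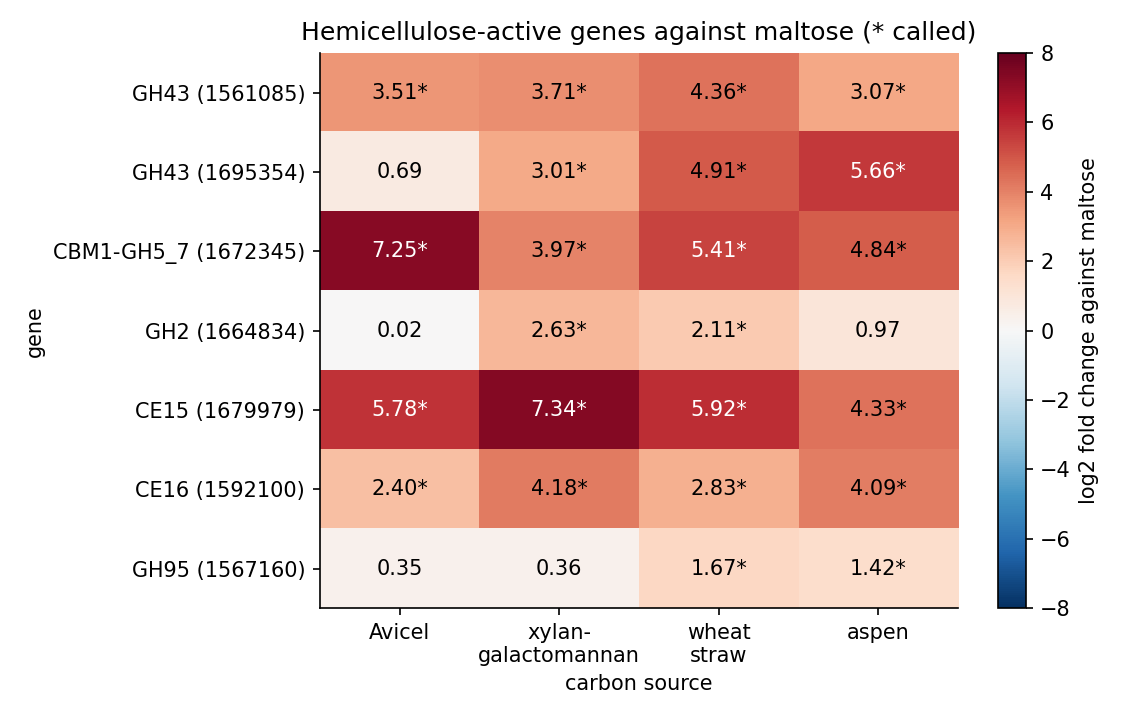
Fitted log2 fold change against maltose (colour and number) of the 7 genes taken as hemicellulose-active on 4 carbon sources, with an asterisk where the gene was called. The GH43 genes differ most on Avicel, at 3.51 for 1561085 and 0.69 for 1695354, and 1672345 reaches 7.25 there.

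Some libraries moved many of these genes at once. In xylan-galactomannan 1, 7 of the 7 hemicellulose-active genes, both GH43 genes included, had the lowest level of their group, as had 33.6% of all genes tested. In xylan-galactomannan 2, 7 of 7 had the highest, as had 41.6% of all genes. In Avicel 1, both GH43 genes were the lowest of the group, as were 1664834, 1592100 and 1567160 and 44.3% of all genes tested. There 1672345 was at its highest, 2826 CPM against 1112 and 1099, and so was 1679979, at 146 CPM against 30.4 and 33.2. Maltose 3, wheat straw 3 and aspen 1 each likewise held the lowest level of 5 of the 7 genes, beside 42.2%, 32.1% and 34.7% of all genes tested. The part of these libraries in the differences between carbon sources was not tested beyond leaving each of them out.

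Other groups of the published lists were counted against maltose in the same way, in the order aspen, wheat straw, Avicel and xylan-galactomannan. The study listed these genes, and the 5 hemicellulose-active genes above, by different routes. Some were selected for their levels on aspen or wheat straw. Others, all 6 cellulose-active genes among them, lie in map nodes picked for their counts of secreted proteins. Selection and map both used these same libraries, those on xylan-galactomannan excepted. The counts on aspen, wheat straw and Avicel are therefore not independent evidence of direction. Of 5 pectin-active genes 5, 5, 3 and 5 were called, of 6 cellulose-active genes 5, 6, 6 and 1, and of 2 GH3 genes 2, 2, 2 and 2, all higher. Shares of all genes tested called higher were 14.4%, 9.80%, 3.66% and 5.87% in the same order. Of 5 sugar transporter-type genes of class KOG0254, which includes importers of released sugars, 5, 5, 1 and 4 were called. Of 3 genes of the sugar reductase and polyol dehydrogenase type, a class that in other fungi includes enzymes of pentose use, 3 were called on every substrate. On Avicel the cellulose-active genes had a median log2 fold change of 8.69 and the transporter-type genes one of 0.60, beside 3.51 for 1561085 and 0.69 for 1695354. On xylan-galactomannan the medians were 0.01 and 4.35, beside 3.71 and 3.01.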

How the data were processed

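Total polyadenylated RNA of P. sanguineus mycelium was sequenced as paired reads in 15 libraries, grouped by the carbon source in the labels. The authors filtered and trimmed the reads, aligned them to the strain's genome with TopHat2 and counted them per gene model with HTSeq, and the deposited count table was used as given. Versions of the aligner and counter, and the strand setting: not given in the sources used here. A second deposited table, a normalised signal that the labels ascribe to DESeq 1.5, equals the counts divided by 1 constant per library (relative deviation at most 5.1e-15), and was not tested further. Gene lengths in bases (another kind of value) were deposited beside it. All per-library columns were matched to samples, with 0 left over.

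The analysis used edgeR 4.0.16 under R 4.3.3, with filterByExpr on the groups, TMM factors (0.739 to 1.31) and a robust quasi-likelihood fit with 1 mean per group over all 15 libraries, so that all groups share 1 estimate of the spread (biological coefficient of variation 0.281). P-values were adjusted by Benjamini-Hochberg over the 11724 genes tested within each of 10 comparisons, and calls required both an adjusted p under 0.05 and a log2 fold change beyond 1 in size. Intervals cover 95%. Group differences of the ratio were tested with exact permutation tests over libraries. Likeness is the Pearson correlation of log2 CPM (prior count 2). Even numbers made up 66.5 to 76.5% of counts between 1 and 20 in a library, and 52.3 to 56.5% of higher counts, so halved counts were tried. No replicate libraries were identical (chi-square per gene 13.6 to 667). The test was also run on counts simulated from its own fitted spread. Shifts shared by many genes of a library were not simulated, so that run does not cover them.

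The named genes are the GH43 genes, the other hemicellulose-active genes, the 5 most similar genes and 3 most similar annotated genes of each GH43 gene, and members of the published lists. The members, lists, rule and tests were chosen with earlier results of these data known. Alternatives were DESeq2 1.42.0, limma-voom (limma 3.58.1), other scaling, no filter, halved counts, a replicate block, pairwise fits and leaving out libraries.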

Additional observations from a re-analysis of the deposited data

How the results depend on the processing

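No fitted log2 fold change of a called GH43 comparison changed sign under any setting. For 1561085 on aspen against wheat straw, limma-voom gave -1.25 and library size alone -1.22, neither past the threshold, and leaving out each library gave -1.45 to -1.07. For 1695354, a fit to only the 6 libraries of xylan-galactomannan and Avicel gave 2.29 and lost the call, and leaving out each library moved wheat straw against xylan-galactomannan from 1.61 to 2.14. For 1561085 on aspen against xylan-galactomannan the range was -1.09 to -0.11, with a call only without xylan-galactomannan 1. The cause was not tested. With library size as the only scaling, the median of all genes on aspen against Avicel went from 0.02 to 0.48 and the calls on aspen against maltose from 1684 higher and 1630 lower to 2619 and 914. The ratio kept an exact permutation p of at most 0.0028 under every alternative tried, none of which allows for the selection of 1695354 from these libraries.

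Replicate numbers did not pair the libraries: same-numbered libraries had correlated deviations above 0.1 in 3 of 30 pairs (range -0.37 to 0.40), and 3 of 15 libraries correlated best with their own number. A fit with the replicate number as a block changed no GH43 call, giving -1.23 for 1561085 on aspen against wheat straw (adjusted p = 0.050), and made 1650 higher and 1585 lower calls on aspen against maltose.

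With 3 libraries per group, the 95% interval of 1695354 on Avicel against maltose ran from -0.63 to 2.01, so a rise within it is not excluded.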
